A study of Homo sapiens with 3 samples.

Results

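The mitotic spindle, kinetochore and checkpoint genes described here are the genes that carry a cell from G2 through the separation of its chromosomes. They were taken by symbol from a list of 45 genes, of which 34 had a named probe set, together with every gene named CENP plus 1 letter, of which 16 had one. Kinesin genes were left out. This gave 50 of the 14884 named genes on the array, each with 1 probe set. The 11 listed genes UBE2C, NUF2, SPC24, SPC25, TPX2, DLGAP5, ASPM, ANLN, NCAPD2, NCAPG and NCAPH were not analysed here. Expression was read on HuGene-2_0-st arrays in BE(2)-C, an established MYCN-amplified line from a human neuroblastoma, which all 3 groups share. The cells received a control siRNA or an siRNA against WDR5, named siRNA-1 or siRNA-2, for 40 hours, and each condition was measured on 1 array. WDR5 holds together the enzyme complexes that place methyl groups on lysine 4 of histone H3, and the series asks how it bears on transcription in these cells.

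Entry into mitosis is driven by the kinase CDK1 bound to A- and B-type cyclins. The centromere, marked by the histone variant CENP-A, carries the kinetochore, which binds spindle microtubules, and the spindle checkpoint holds anaphase back until every kinetochore is attached. The anaphase-promoting complex then has securin and cyclin B destroyed, separase opens cohesin, and the chromosomes part. Transcripts of many of these genes peak in G2 and mitosis. Their promoters are known for the cell cycle homology region, bound by a complex that works with the factors B-MYB and FOXM1, and for boxes bound by NF-Y.

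With 1 array per group no value has a replicate error and no test was run, so each ratio compares arrays and not conditions. Both WDR5 siRNAs were set against the same control array, so their ratios are not independent of each other. Values are deposited levels read as log2, and the file does not state that scale. The targeted gene WDR5 had a log2 level of 9.46 on the control array and of 7.90 on both others, 2.95-fold lower. Among markers of the labelled cell type, 7 adrenergic neuroblastoma genes were measured, with control levels of 7.29 (TH) to 11.60 (HAND2). Of these, DBH had log2 ratios of -0.81 and 0.51 and CHGA of -0.47 and 0.73 with siRNA-1 and siRNA-2, chosen after their values were seen. Of the Schwann and stromal markers, 3 of 8 were measured and each had the same level on all arrays, from 4.80 (DCN) to 6.96 (SOX10). Of the leukocyte and endothelial markers, 4 of 7 were measured, with control levels of 4.29 (PECAM1) to 7.75 (CD68). PECAM1 then stood at 4.88 and 5.12 and CD68 at 8.14 and 7.83 with siRNA-1 and siRNA-2, and the part of such markers in the results below was not tested.

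All 50 mitotic genes passed the filter on low values, a mean log2 level at or above the median of 6.78 over named genes, which 7442 genes passed. Most were slightly lower than control, more of them with siRNA-2. With siRNA-1, 32 were lower by any amount, 12 higher and 6 at exactly the control level, where 38.2% of the kept genes were lower, 38.1% higher and 23.7% tied. After the shift of the arrays to a common median, 29 were lower and 21 higher. With siRNA-2, 45 were lower, 3 higher and 2 at the control level, where the kept genes gave 41.6%, 32.6% and 25.7%. Both siRNAs gave a lower level in 31 of the 50 genes, against 22.3% of kept genes, and a higher level in 1 gene, CENPX, against 18%. The remaining genes comprised 11 on opposite sides of control (25.2% of kept genes) and 7 at the control level with at least 1 siRNA (34.5%). Because exact ties are common in this table, counts by any amount depend on how often a gene is tied. Of the 31 genes lower with both, MYBL2, BUB3, BUB1B and SGO1 had the same value on both siRNA arrays. Their ratios with siRNA-1 and siRNA-2 are thus identical, as for WDR5. Among the 3721 genes at or above the 75th percentile of level, where 43 of the 50 mitotic genes lie, 22.5% were lower with both, and 27 of those 43 mitotic genes were.

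The differences were small. The median log2 ratio of the 50 genes was -0.06 with siRNA-1, with quartiles at -0.28 and 0.00, and -0.24 with siRNA-2, with quartiles at -0.37 and -0.09. The median of all kept genes was 0.00 with each. In fold terms the median mitotic gene was 1.04-fold below control for siRNA-1 and 1.18-fold below for siRNA-2. The ratios ran from -0.75 (CENPM) to 0.35 (NEK2) with siRNA-1 and from -0.65 (ESPL1) to 0.16 (CENPX) with siRNA-2. When the arrays were shifted to 1 common gene median, the siRNA-1 median came to -0.02 and the siRNA-2 median to -0.21, and the kept genes moved to 0.04 and 0.03.

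**Figure D1:**
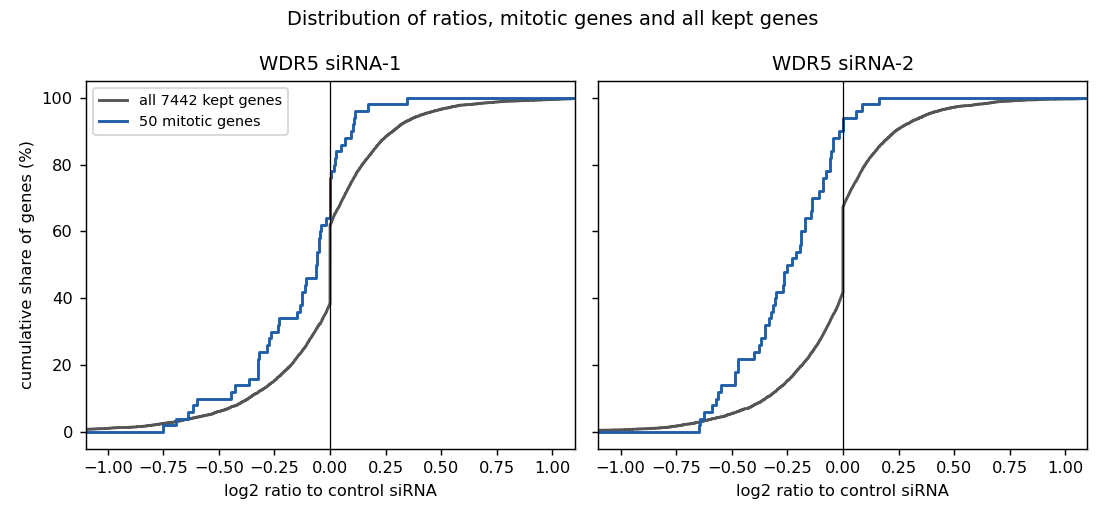
Cumulative share of genes, in percent, against the log2 ratio to the control siRNA, for the 50 mitotic genes and the 7442 kept genes, with siRNA-1 on the left and siRNA-2 on the right. The line of the mitotic genes lies to the left of the other over most of its length, further so with siRNA-2 (median -0.24) than with siRNA-1 (median -0.06), and the vertical step at 0 is the exact ties.

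At a limit of 1.5-fold, 0 of the 50 genes were lower with both siRNAs and 0 higher, where 0.847% of kept genes were lower and 0.618% higher. With siRNA-1 alone 5 genes were at least 1.5-fold lower (CENPM, NUSAP1, AURKA, INCENP and CENPQ), against 4.6% of kept genes. With siRNA-2 alone 4 others were (ESPL1, CENPH, CENPU and PTTG1), against 4%. None was 1.5-fold higher with either, where 2.24% and 2.19% of kept genes were. The mitotic shares were thus 10% and 8%. The siRNA-1 count fell to 3 when arrays were shifted to a common median, against 295 of 7442 kept genes. The siRNA-2 count fell to 1 with quantile normalization, against 237 of 7446, a share no longer above that of kept genes. At a limit of 1.2-fold, 12 genes were lower with both siRNAs, against 5.42% of kept genes, and 0 were higher, against 3.53%. AURKB, PLK4, TTK and CCNB2 no longer reached 1.2-fold with both siRNAs after quantile normalization or after the shift to a common median. ESPL1 also fell short after the shift, at a log2 ratio of -0.24 with siRNA-1. The share of kept genes at 1.2-fold was not computed under those scalings. In the deposited values, the 1.2-fold limit was passed on the low side by 15 genes with siRNA-1 (14.7% of kept genes) and by 24 with siRNA-2 (14.4%). On the high side only NEK2 passed it, with siRNA-1, where 11% of kept genes did, and 0 passed with siRNA-2, where 8.77% did.

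The split of the kept genes depends on the scaling, while that of the mitotic genes stays on the low side. Of the kept genes, 1658 were lower and 1343 higher with both siRNAs, however small the difference. The numbers became 1397 and 3521 after quantile normalization and 1345 and 3622 after the shift to a common median, since ties then become small positive ratios. For the mitotic genes the same numbers were 31 and 1, then 32 and 4, then 28 and 5. At 1.5-fold with both siRNAs, the kept genes split as 63 lower and 46 higher, as 51 and 51 after quantile normalization, and as 48 and 57 after the shift. In bulk RNA of this kind, fewer cells in G2 and mitosis and less of these transcripts per cell cannot be told apart.

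**Figure D2:**
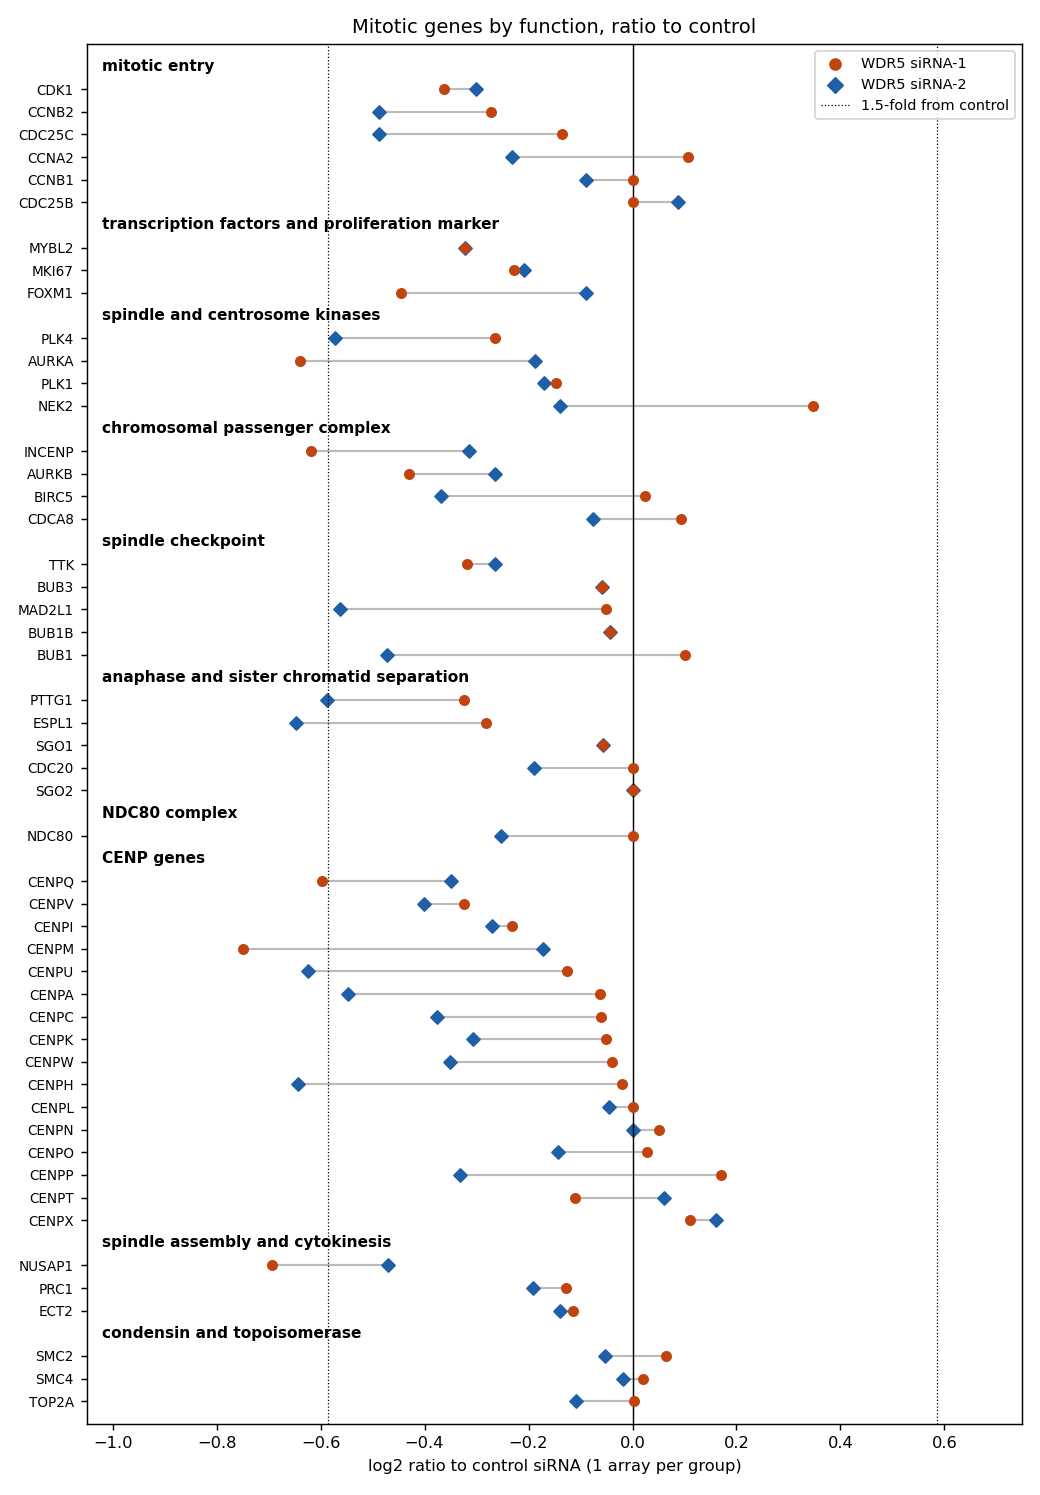
Log2 ratio to the control siRNA for each of the 50 mitotic genes, grouped by function, with siRNA-1 as circles and siRNA-2 as diamonds (1 array per group) and dotted lines at 1.5-fold. Most symbols lie left of 0, the 3 condensin and topoisomerase genes sit within 0.11 of it, and no gene has both symbols beyond a dotted line.

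Promoter sequences are shown for 6 of the genes because most members lay on the same side of control and this family is known for shared promoter elements. The first 4 were lower with both siRNAs and hold both elements before the start site, and NUSAP1 had the largest shared difference. In the deposited values CENPX was the 1 gene higher with both. Each line gives the 120 bases before the most upstream RefSeq start site on GRCh38.p14, read along the gene. Capitals mark the cell cycle homology region TTTGAA and the NF-Y box CCAAT on either strand (ATTGG where it lies on the other).
CCNB2 (chr15:59105026-59105145, plus strand): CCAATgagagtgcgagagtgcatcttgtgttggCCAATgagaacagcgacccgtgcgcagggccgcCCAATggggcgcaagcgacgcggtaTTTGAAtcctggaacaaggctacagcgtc
ESPL1 (chr12:53268179-53268298, plus strand): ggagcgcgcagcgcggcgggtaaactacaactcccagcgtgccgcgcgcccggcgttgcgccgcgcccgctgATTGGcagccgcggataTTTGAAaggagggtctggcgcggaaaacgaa
INCENP (chr11:62123891-62124010, plus strand): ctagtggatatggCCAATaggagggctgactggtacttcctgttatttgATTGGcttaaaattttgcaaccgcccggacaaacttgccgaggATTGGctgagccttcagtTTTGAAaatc
PLK1 (chr16:23678769-23678888, plus strand): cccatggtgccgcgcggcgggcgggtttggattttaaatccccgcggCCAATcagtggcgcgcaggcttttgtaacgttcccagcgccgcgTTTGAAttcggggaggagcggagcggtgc
NUSAP1 (chr15:41332761-41332880, plus strand): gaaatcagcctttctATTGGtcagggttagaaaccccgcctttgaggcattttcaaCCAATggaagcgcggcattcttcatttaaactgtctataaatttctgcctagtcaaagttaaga
CENPX (chr17:82022879-82022998, minus strand): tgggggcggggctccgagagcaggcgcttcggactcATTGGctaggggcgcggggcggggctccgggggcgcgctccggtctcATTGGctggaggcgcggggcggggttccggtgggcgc

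In CCNB2, ESPL1 and PLK1 the cell cycle homology region begins at -29, -31 and -29 from the start site, and in INCENP at -10. An NF-Y box lies upstream of it in each of these promoters. NUSAP1 holds NF-Y boxes at -105 and -64, and its TTTGAA begins at 14 bases into the transcript, outside the stretch shown. CENPX has NF-Y boxes and no TTTGAA in its window. Genes that were lower with both siRNAs can lack these letters too. The 12 members lowest by shared change do not include PLK1, and TTK among them was not matched to a promoter window. Of the others, CENPQ, PTTG1, CENPV, MYBL2 and AURKB hold no TTTGAA. CENPV and MYBL2 hold no CCAAT either.

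The RefSeq promoter table, which covers 250 bases before to 50 after each start, matched 42 of the 50 genes with 59 windows, since 11 genes have several. AURKA, BIRC5, BUB3, CENPH, CENPL, CENPM, FOXM1 and TTK were not matched. TTTGAA, on either strand, was in 44.1% of the 59 windows and in 15.2% of all 35116 windows of the table. CCAAT was in 66.1% and 34.6%, and both were in 32.2% and 5.90%. The E2F letters TTTCCCGC or TTTGGCGC were in 3.39% and 2.27%, and the E-box CACGTG, which MYC family proteins can bind, was in 8.47% and 7.26%. Overlapping matches of different motifs were each counted. Ratios were then set beside the motifs as a description. The 23 genes with TTTGAA had median log2 ratios of -0.06 and -0.21 with siRNA-1 and siRNA-2, and the 19 without it -0.05 and -0.27. Of these, 15 of the 23 and 10 of the 19 were lower with both. The 18 genes with both elements had medians of -0.13 and -0.31, and 14 of them were lower with both, against -0.02 and -0.24 and 11 of the 24 others. The 33 genes with CCAAT had medians of -0.06 and -0.30, with 21 lower with both, and the 9 without it -0.04 and -0.14, with 4. Only CENPA and NUSAP1 held the E2F letters. Their log2 ratios were -0.06 and -0.69 with siRNA-1, and -0.55 and -0.47 with siRNA-2, in that order of genes. The medians over these 2 genes were -0.38 with siRNA-1 and -0.51 with siRNA-2, against -0.05 and -0.24 in the 40 others. The 5 genes with the E-box had medians of -0.06 and -0.17, and the 37 without it -0.06 and -0.26. A match describes the letters and does not show that a factor binds there.

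**Figure D3:**
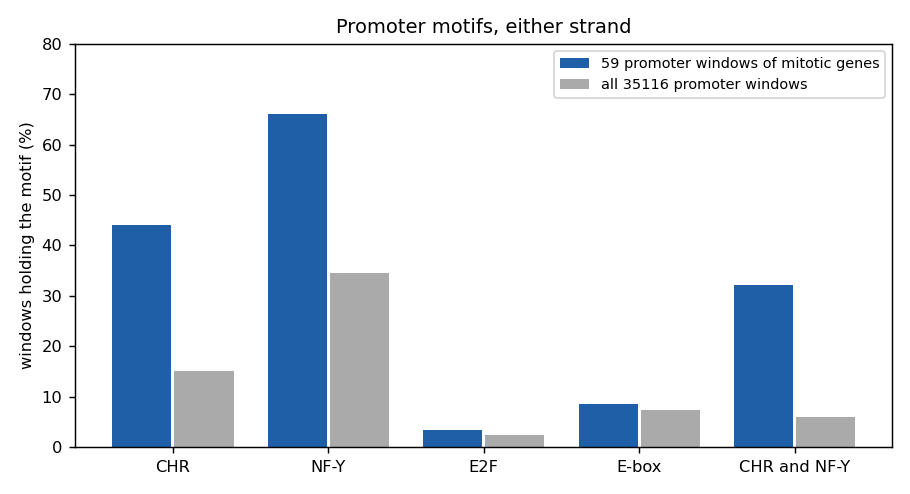
Share of promoter windows, in percent, holding each motif on either strand, for the 59 windows of mitotic genes and all 35116 windows of the RefSeq table. The cell cycle homology region (CHR) is in 44.1% against 15.2% and the NF-Y box in 66.1% against 34.6%, while the E2F letters and the E-box are near the table's share.

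Among the genes of mitotic entry, 3 of 6 were lower with both siRNAs. The share of kept genes lower with both, 22.3%, is to be set beside this count and that of each function below. CDK1, the kinase that starts mitosis, stood at 10.02 with control, 9.66 with siRNA-1 and 9.72 with siRNA-2, which is 1.29-fold and 1.23-fold lower. CCNB2, the gene of cyclin B2, stood at 11.36, 11.09 and 10.87, or 1.21-fold and 1.40-fold lower. The control array was the highest of the 3 for both genes. CDC25C, a phosphatase that activates CDK1, stood at 7.12, 6.98 and 6.63, and its siRNA-2 level was below the filter level, so the size of that ratio is uncertain. CCNA2 (cyclin A2) had log2 ratios of 0.11 and -0.23. CCNB1 (cyclin B1) and the phosphatase gene CDC25B were exactly at the control level with siRNA-1, and had log2 ratios of -0.09 and 0.09, in that order, with siRNA-2.

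The transcription factor genes and the proliferation marker were lower with both, 3 of 3. MYBL2, which encodes B-MYB, stood at 10.93 with control and at 10.61 with each WDR5 siRNA, 1.25-fold lower. MKI67, the gene of the Ki-67 antigen of cycling cells, stood at 11.12, 10.89 and 10.91, or 1.17-fold and 1.16-fold lower. FOXM1, which drives transcription in G2, stood at 10.48, 10.04 and 10.39. The siRNA-1 array was 1.36-fold and the siRNA-2 array 1.06-fold lower than control, so the arrays of the WDR5 siRNAs were further apart for FOXM1 than for the other two.

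Of the 4 spindle and centrosome kinase genes, 3 were lower with both siRNAs. PLK4, the kinase that controls centriole duplication, stood at 10.01 with control, 9.75 with siRNA-1 and 9.44 with siRNA-2, for log2 ratios of -0.26 and -0.57. AURKA, the spindle pole kinase Aurora A, stood at 9.81, 9.18 and 9.63, 1.56-fold and 1.14-fold lower. PLK1, a kinase needed at most steps of mitosis, was 1.11-fold and 1.13-fold lower. NEK2, a kinase of centrosome separation, went the other way with siRNA-1: its levels of 9.71, 10.06 and 9.57 gave log2 ratios of 0.35 and -0.14.

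The chromosomal passenger complex corrects faulty attachments and then guides cytokinesis, and its 4 genes were divided. INCENP, the scaffold subunit, stood at 9.56 with control, 8.95 with siRNA-1 and 9.25 with siRNA-2, 1.53-fold and 1.24-fold lower. AURKB, its kinase subunit Aurora B, stood at 11.77, 11.34 and 11.51, for log2 ratios of -0.43 and -0.26. For these genes the siRNA-1 array was the lowest. The small subunits were lower with siRNA-2 only: BIRC5 (survivin) had log2 ratios of 0.02 and -0.37, and CDCA8 (borealin) of 0.09 and -0.08.

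In the spindle checkpoint 4 of 5 genes were lower with both siRNAs, 2 of them by very little. TTK, the checkpoint kinase MPS1, stood at 10.00 with control, 9.68 with siRNA-1 and 9.73 with siRNA-2, for log2 ratios of -0.32 and -0.27. MAD2L1, which encodes the MAD2 protein that restrains CDC20, stood at 10.09, 10.04 and 9.53, 1.04-fold and 1.48-fold lower. BUB1, a checkpoint kinase at the kinetochore, stood at 10.27, 10.37 and 9.79, for log2 ratios of 0.10 and -0.47. The siRNA-2 array was thus the lowest for MAD2L1 and BUB1, and the siRNA-1 array lay near control. BUB3 was 1.04-fold lower and BUB1B (BUBR1) 1.03-fold lower with each siRNA, and BUB1B came to a log2 ratio of 0.00 with siRNA-1 after the shift to a common median.

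Among the genes of anaphase and sister chromatid separation, 3 of 5 were lower with both siRNAs. PTTG1, the gene of securin, the inhibitor of separase, stood at 7.09 with control, 6.77 with siRNA-1 and 6.51 with siRNA-2, for log2 ratios of -0.32 and -0.59. Both siRNA levels were below the filter level of 6.78, so the size of the fold is uncertain. PTTG1 passed the filter only through its control level, and is still counted among the genes lower with both siRNAs. ESPL1, separase itself, stood at 9.02, 8.74 and 8.38, 1.22-fold and 1.57-fold lower. The order of the arrays was the same for securin and separase, with control highest and siRNA-2 lowest. SGO1 (shugoshin, which protects centromeric cohesin) was 1.04-fold lower with each, and SGO2 had the same level of 8.48 on all 3 arrays. CDC20, which activates the anaphase-promoting complex, stood at 10.53 on the control and siRNA-1 arrays and at 10.34 with siRNA-2. NDC80, the only analysed gene of the microtubule-binding NDC80 complex, had the same order, at 9.38, 9.38 and 9.13.

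**Figure D4:**
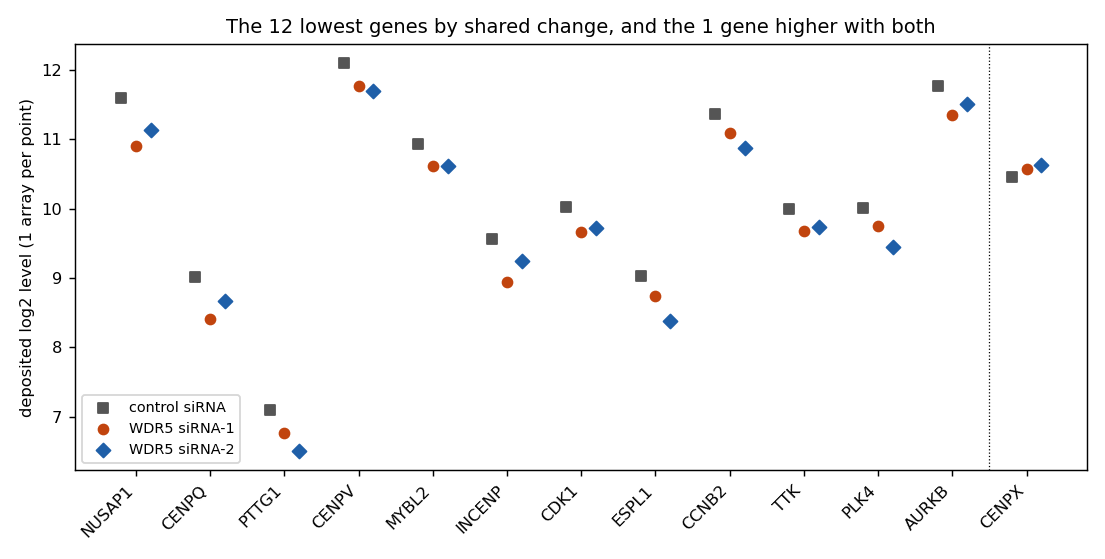
Deposited log2 level on each array for the 12 mitotic genes lowest by shared change and for CENPX, right of the dotted line, with 1 array per point. The control array (square) is the highest of the 3 for all 12 and the lowest for CENPX, at 10.46, which follows from how these genes were chosen. The siRNA-1 and siRNA-2 arrays change places.

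For the 16 CENP genes the median log2 ratio was -0.06 for siRNA-1, where 11 were lower than control, and -0.32 for siRNA-2, where 13 were. Of kept genes 38.2% and 41.6% were lower, in that order. With both siRNAs 10 were lower and 1 higher, against 22.3% and 18% of kept genes. The 10 became 8 after the shift to a common median, since CENPH and CENPW then lay at 0.02 and 0.01 with siRNA-1. The genes are given here by the parts of the centromere complex their proteins form, a grouping made after the values were seen. CENPA, the centromeric histone, stood at 9.67 with control, 9.61 with siRNA-1 and 9.12 with siRNA-2, 1.04-fold and 1.46-fold lower. CENPC, which binds that nucleosome and links it to the outer kinetochore, stood at 8.32, 8.26 and 7.94. In both the siRNA-2 array was the one that stood apart.

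The 4 genes of the CENP-H, I, K and M proteins were all lower with both siRNAs, except that CENPH lost its direction with siRNA-1 after the shift. CENPH stood at 9.17 with control, 9.15 with siRNA-1 and 8.53 with siRNA-2, 1.01-fold and 1.56-fold lower. CENPM stood at 9.24, 8.49 and 9.06, 1.68-fold and 1.13-fold lower, the opposite order of the siRNAs. CENPI was 1.17-fold and 1.21-fold lower and CENPK 1.04-fold and 1.24-fold lower.

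In the CENP-O, P, Q and U assembly, CENPQ had the largest shared difference, with levels of 9.01, 8.41 and 8.66, 1.51-fold and 1.27-fold lower. CENPU, which recruits PLK1 to the kinetochore, stood at 9.85, 9.72 and 9.22, 1.09-fold and 1.54-fold lower. CENPP stood at 10.51, 10.68 and 10.18, for log2 ratios of 0.17 and -0.33, and CENPO followed it in direction with log2 ratios of 0.03 and -0.14.

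The histone fold proteins CENP-T, W and X went different ways. CENPX, in the deposited values the 1 mitotic gene higher with both siRNAs, stood at 10.46, 10.57 and 10.62, 1.08-fold and 1.12-fold higher. After quantile normalization 4 mitotic genes were higher with both, and after the shift to a common median 5. CENPW was 1.03-fold and 1.28-fold lower, and CENPT had log2 ratios of -0.11 and 0.06. CENPL and CENPN, whose proteins pair to bind the CENP-A nucleosome, were within 1.04-fold of control throughout, and CENPL turned to a log2 ratio of 0.03 with siRNA-2 after quantile normalization. CENPV stood at 12.09, 11.77 and 11.69, 1.25-fold and 1.32-fold lower.

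**Figure D5:**
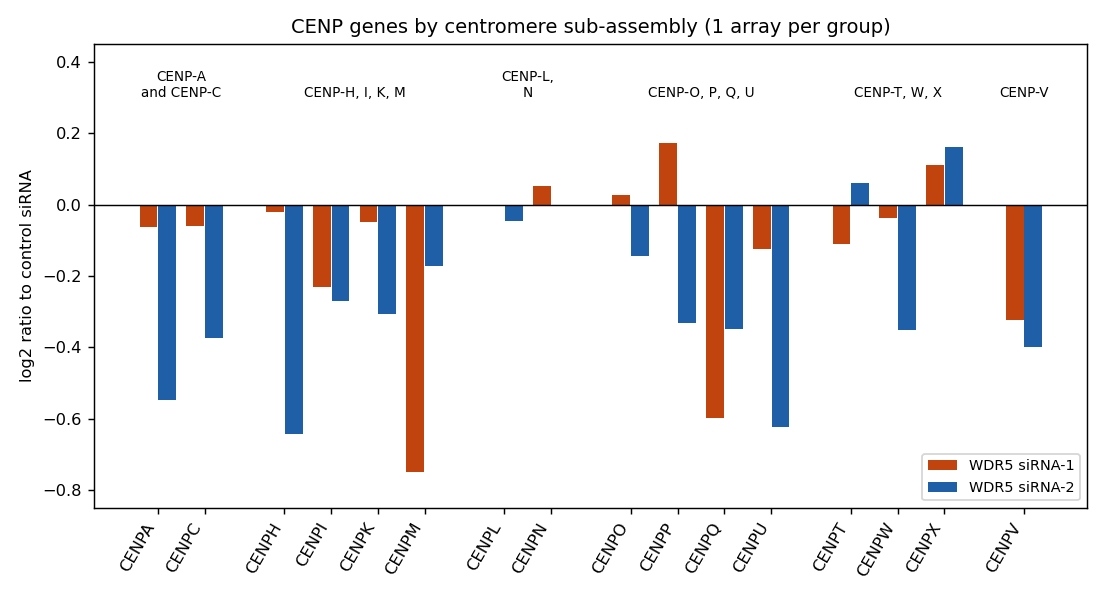
Log2 ratio to the control siRNA of the 16 CENP genes, grouped by centromere sub-assembly, with siRNA-1 and siRNA-2 as separate bars (1 array per group). Where both bars lie below 0, the siRNA-2 bar is the longer for CENPA, CENPC, CENPH, CENPI, CENPK, CENPU, CENPV and CENPW. The siRNA-1 bar is the longer for CENPM (-0.75) and CENPQ (-0.60). Only the siRNA-2 bar is below 0 for CENPL, CENPO and CENPP, and only the siRNA-1 bar for CENPT. Both CENPX bars are above 0.

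The 3 genes of spindle assembly and cytokinesis were lower with both siRNAs. NUSAP1, which bundles spindle microtubules near chromosomes, stood at 11.60 with control, 10.90 with siRNA-1 and 11.13 with siRNA-2, 1.62-fold and 1.39-fold lower, the largest shared difference of the 50 genes. PRC1, which cross-links the microtubules of the central spindle, had log2 ratios of -0.13 and -0.19, and ECT2, which activates RhoA for the cleavage furrow, of -0.11 and -0.14. By contrast, the condensin and topoisomerase genes lay close to control. SMC2 stood at 10.74, 10.81 and 10.69, SMC4 at 10.91, 10.93 and 10.89, and TOP2A, which untangles DNA, at 12.49, 12.49 and 12.38. All 3 were above control by a log2 ratio of at most 0.07 with siRNA-1 and below it with siRNA-2, except that SMC4 came to 0.01 with siRNA-2 after the shift to a common median.

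Compared directly, the siRNA-1 array was higher than the siRNA-2 array in 32 of the 50 genes, lower in 13 and equal in 5, against 43.1% higher and 35.5% lower among kept genes. The median log2 ratio of siRNA-1 over siRNA-2 was 0.07. Only CENPH reached 1.5-fold, 1.54-fold higher with siRNA-1, where 4.21% of kept genes were that much higher. CENPH came to 1.49-fold with quantile normalization, and BUB1 to 1.51-fold with the shift to a common median. Next came BUB1 (1.49-fold), MAD2L1 (1.42-fold), CENPP (1.42-fold) and CENPU (1.41-fold). At the other end CENPM was 1.49-fold lower on the siRNA-1 array, AURKA 1.37-fold, FOXM1 1.28-fold, INCENP 1.23-fold and CENPQ 1.19-fold. No gene was 1.5-fold lower in this direction, where 4.65% of kept genes were, but CENPM came to 1.53-fold lower with quantile normalization. That scaling also turned the split of the kept genes, from 3204 higher and 2639 lower to 2886 and 4556, while the mitotic genes split as 32 and 18. The difference between the siRNAs was not tested.

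Other genes of the pathway, from a list of 93 of which 64 were measured and kept, differed by function. None reached 1.5-fold with both siRNAs. Of the 14 genes of the outer kinetochore and of centromere loading, 8 were lower with both and 0 higher, with medians of -0.13 and -0.22. Of kept genes 22.3% were lower and 18% higher with both, shares to be set beside each list here. ZWINT, an outer kinetochore scaffold gene, stood at 8.56, 8.07 and 8.06, 1.41-fold lower with each. HJURP, the chaperone that deposits CENP-A, stood at 10.59, 10.27 and 10.23, 1.25-fold and 1.28-fold lower. The licensing factor genes OIP5 and MIS18A, which act before HJURP, were 2.46-fold and 1.99-fold lower with siRNA-1 and 1.25-fold and 1.19-fold lower with siRNA-2. Among 11 further spindle and midbody genes 8 were lower with both and 0 higher, and CDCA3 (log2 ratios of -0.37 and -0.28), HMMR (-0.25 with each) and GTSE1 (-0.28 and -0.24) had the largest shared differences. Of 11 entry regulators 7 were lower with both. LIN54, the DNA-binding subunit of the complex that reads the cell cycle homology region, was higher, at 9.13, 9.50 and 9.41, for log2 ratios of 0.38 and 0.29.

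The anaphase-promoting complex and cohesin have subunits that are needed outside mitosis too, and whether that bears on these levels was not tested. With siRNA-2 their medians lay nearer 0 than those of the lists above. Of 17 genes of the anaphase-promoting complex and its regulators, 2 were lower with both and 0 higher, with medians of 0.00 and -0.04. That share of lower genes was below the 22.3% of kept genes. Single genes lay further out, and the following were chosen after their values were seen. ANAPC13, a subunit gene of the complex, stood at 9.79, 8.17 and 9.87, 3.09-fold lower on the siRNA-1 array alone. CDC23 and ANAPC5, which encode other subunits, had siRNA-2 log2 ratios of -0.38 and -0.31. Of 11 cohesin genes and regulators, 2 were lower and 2 higher with both, near the shares of kept genes, with medians of 0.07 and 0.00. ESCO2, the acetyltransferase that locks cohesin on DNA in S phase, had log2 ratios of -0.47 and -0.40, and NIPBL, the cohesin loader, of 0.38 and 0.15. SMC3, a core cohesin subunit, was the third gene of the pathway list higher with both, by 1.09-fold and 1.01-fold. Over all 64 genes, 27 were lower and 3 higher with both siRNAs, against 22.3% and 18% of kept genes.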

How the data were processed

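The authors deposited 1 value table with 53617 probe sets and 1 column for each of the 3 arrays. Per the submitters' processing notes the authors used MAS5, in a role left unstated. The deposited values, from 1.34 to 14.9, were made by the authors on a scale the file does not state and were read as log2 from their range. The background correction, normalization and summarisation were not given in the sources used here. The array medians were 5.81, 5.79 and 5.79, and 37.1% of rows held the same value on all 3 arrays.

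Gene symbols came from the platform annotation (16098 with 1 symbol, 0 with several, 37519 with none here) and Entrez identifiers were updated through RefSeq. The probe set with the highest mean was taken for each gene. Ratios, counts and medians were computed with Python 3.11.15 and pandas 2.3.3, and the counting was tested on simulated data. The number of arrays limits the precision. The labels do not say how cultures were separated.

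The members, lists and limits were chosen with earlier results of these data known. Members named with full values are the 12 lowest and up to 6 highest by shared change, and the leading member of each function. So are the 5 members at each end of siRNA-1 over siRNA-2. Shared change means both siRNAs on the same side of control, ranked by the smaller absolute log2 ratio. Of other pathway genes, the 8 lowest and up to 4 highest by shared change are named, some by ratio or fold only. Other members are given in brief, and sensitivity to the filter, scaling, probe set and fold limit was examined. The 6 promoters shown were chosen after the values were seen.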

Additional observations from a re-analysis of the deposited data

Results flagged for a closer look

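Of the 50 mitotic genes, 11 (22%) lay on opposite sides of control with the siRNAs, against 25.2% of kept genes, so the share is not above the background. The differences were not tested, since each siRNA had 1 array. The log2 ratio of siRNA-1 over siRNA-2 was 0.57 for BUB1, 0.50 for CENPP, 0.49 for NEK2, 0.39 for BIRC5 and 0.34 for CCNA2. Smaller values were found for CENPO (0.17), CDCA8 (0.17), SMC2 (0.12), TOP2A (0.11) and SMC4 (0.037), whose siRNA-2 log2 ratio came to 0.01 after the shift to a common median, on the same side as siRNA-1. CENPT was the 1 gene of this kind lower with siRNA-1, at -0.17. The other 10 lay above control for siRNA-1 and below it for siRNA-2.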

How the results depend on the processing

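With 1 array per group, no array could be left out. No paired analysis was possible because each group had 1 array. With no filter, with the mean of probe sets and with genes of 1 probe set, the member counts and medians were the same as reported, as every member has 1 probe set and passed the filter. With the 75th percentile filter 43 members were left, 27 of them lower with both siRNAs. Quantile normalization left 1 member at least 1.5-fold lower with siRNA-2, in place of 4. The kept genes gave 237 in place of 298, so the member share was then not above theirs. Median centring left 3 with siRNA-1, in place of 5, where the kept genes gave 295 in place of 342. It moved the siRNA-1 median from -0.06 to -0.015. Centring shifts each array by a constant, so the median of kept genes moved alike, from 0.00 to 0.04. The cause of the change with quantile normalization was not tested. A limit of 1.2-fold gave 12 members lower with both siRNAs, 15 with siRNA-1 and 24 with siRNA-2. The ratios of the named members each moved by less than 0.1 under quantile normalization, median centring and the mean of probe sets. Small moves still took AURKB, PLK4, TTK and CCNB2 below 1.2-fold with at least 1 siRNA under both quantile normalization and median centring. Median centring did the same for ESPL1. Signal over background could not be judged, so low levels such as those of PTTG1 and CDC25C carry folds of uncertain size.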
